A study of Mus musculus with 6 samples.

Results

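Genes that interferons induce, but that belong to no common family, were followed in TC-1 cells, 10 in number: Ifi27, Ifi27l2a, Ifi35, Nmi, Ifi44, Rtp4, Xaf1, Trafd1, Tor3a and Isg20. They were taken by symbol from the 23282 rows of the deposited count table, where each of the 10 symbols stood on 1 row. RNA-seq counts per gene came from the mouse line TC-1, labelled lung adenocarcinoma, which was made by transforming lung cells with papillomavirus oncogenes and activated ras. For 72 h, 3 samples were left untreated and 3 received 20 ng/ml of recombinant murine interferon-gamma (IFN-gamma). All 6 libraries were of the same line and medium, RPMI with serum and antibiotics. Nothing in the labels tells whether replicates of a group were grown separately, so the spread behind each p-value may be only technical.

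IFN-gamma is a cytokine of activated T cells and NK cells. Its receptor activates the kinases Jak1 and Jak2 and transcription factors of the STAT family, which bind DNA elements called GAS. These then raise further factors, among them Irf1 and Irf9, which act at interferon-stimulated response elements (ISREs), so that genes best known from the response to type I interferons also respond to IFN-gamma. Their proteins include an RNA exonuclease (Isg20), an antagonist of an inhibitor of apoptosis (Xaf1), brakes on innate signalling (Trafd1) and partners of transcription factors (Nmi).

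All 10 genes rose after IFN-gamma. Ifi44 changed most, 29.7-fold, and Ifi27 least, 1.48-fold, while the other 8 rose between 3.81-fold (Tor3a) and 11.5-fold (Xaf1). Each passed edgeR's quasi-likelihood test at an adjusted p under 0.05 over all 12191 genes with enough counts. In that test 17.4% of all genes were called, 9.88% as higher and 7.56% as lower. In all 10 genes the lowest treated library lay above the highest untreated one, against 16.2% of all genes tested. Increases of at least 2-fold were called in 9 of the 10, against 2.67% of all genes, and increases of at least 4-fold in 8, against 1.44%. The median log2 fold change was 2.48 over the 10 genes and -0.01 over all genes tested. By size of increase, Ifi44 stood at place 39 among the 12191 genes, Tor3a at place 181 and Ifi27 at place 750. In bulk RNA, a larger share of responding cells and more RNA per cell cannot be told apart.

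**Figure D1:**
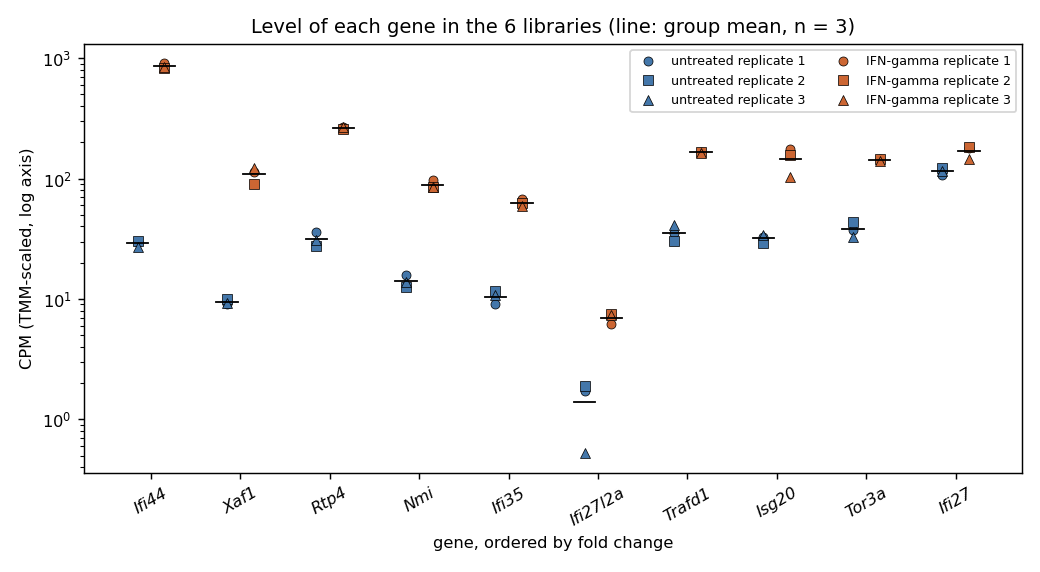
Level of each of the 10 genes in CPM (counts per 1e6, TMM-scaled, log axis) in each library, with blue for untreated, orange for IFN-gamma, the marker shape for the replicate and a line for the mean of 3. No treated library overlaps an untreated one in any gene, and the gap is widest for Ifi44 (29.1 to 861 CPM on average) and narrowest for Ifi27 (115 to 170.2 CPM).

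The libraries held between 7302687 and 10861336 counts, and the first principal component of log2 CPM held 63.9% of the variance. Levels below are CPM, counts scaled to 1e6 per library after TMM correction, and changes are log2 fold changes ± standard error of IFN-gamma over untreated. Levels of different genes serve only to sum markers or to pick genes by level. They are not otherwise compared, because the labels name both a whole-transcript kit and a kit for 3' ends. Of 11 epithelial and lung markers 2 were tested, and their summed level was 16.7 to 18.6 CPM in untreated and 8.48 to 10.2 CPM in treated libraries, with Sftpa1 and Sftpb at 0 counts everywhere. Most of that sum was the keratin gene Krt19, which fell by 0.81 ± 0.20 from 14.1 ± 2.06 to 8.05 ± 1.52 CPM (edgeR, adjusted p = 0.00299). Its part in the results below was not tested. None of 12 immune markers had enough counts to be tested, with a sum of at most 0.815 CPM in untreated and 1.45 CPM in treated libraries and with Ncr1 and Flt3 among those at 0. Of 5 endothelial markers none was tested, with sums from 0.749 to 2.41 CPM in untreated and from 0.893 to 1.30 CPM in treated libraries.

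Ifi44, a cytoplasmic protein induced by interferons whose human form has been reported to slow cell growth, was the most responsive of the 10. It measured 29.9, 30.3 and 27.1 CPM in untreated replicates 1, 2 and 3, and 905, 828 and 851 CPM in IFN-gamma replicates 1, 2 and 3. The libraries within a group were close to each other, with an SD of 5.98% of the mean in untreated and 4.61% in treated cells. The change was 4.89 ± 0.07 (edgeR, adjusted p = 1.37e-38). Its family member Ifi44l, the next gene on chromosome 3, had 1 count over the untreated and 2 counts over the treated libraries, below the floor of 3 counts in each group (0.114 CPM in untreated and 0.107 CPM in treated cells).

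Xaf1, which binds the apoptosis inhibitor XIAP and counters it, had the next largest change. Untreated replicates 1, 2 and 3 held 9.10, 10.1 and 9.20 CPM, and IFN-gamma replicates 114, 89.6 and 122 CPM. IFN-gamma replicate 2 was the lowest of the treated libraries, still far above every untreated one, and the change was 3.53 ± 0.12 (edgeR, adjusted p = 4.37e-25). Xiap itself measured 211 ± 13.5 CPM in untreated and 201 ± 4.15 CPM in treated cells (SD, n = 3) and did not pass (-0.07 ± 0.07, edgeR adjusted p = 0.538). The protease gene Htra2, whose product can cut inhibitors of apoptosis, rose by 0.31 ± 0.08 from 98.6 ± 5.37 to 122 ± 5.60 CPM (edgeR, adjusted p = 0.0032).

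Rtp4 encodes a chaperone that carries receptors such as opioid and bitter taste receptors to the cell surface, and that also binds viral RNA. Its levels were 36.1, 27.4 and 30.7 CPM in untreated replicates 1, 2 and 3 and 268, 259 and 268 CPM in the treated ones. The treated libraries were nearly equal (SD 1.99% of the mean), whereas the untreated ones spread more widely (13.9%). It rose by 3.07 ± 0.08 (edgeR, adjusted p = 2.86e-29). The related genes Rtp1, Rtp2 and Rtp3 had 0 counts in all 6 libraries.

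Nmi and Ifi35 encode proteins that share an interaction domain and bind each other. Nmi was named for its binding to N-myc and also binds STAT proteins, and both proteins can leave cells as danger signals. Nmi measured 15.9, 12.5 and 13.8 CPM in untreated replicates 1, 2 and 3 and 96.7, 85.3 and 84.5 CPM in IFN-gamma replicates 1, 2 and 3. It rose by 2.65 ± 0.11 (edgeR, adjusted p = 2.75e-22). For Ifi35 the values were 9.10, 11.5 and 10.8 CPM untreated and 68.1, 62.3 and 58.7 CPM treated, a rise of 2.60 ± 0.13 (edgeR, adjusted p = 3.98e-20). Both partners thus changed by about the same amount. In both, IFN-gamma replicate 1 was the highest library, but only 1 of the 10 genes lay below its group mean there. In untreated replicate 1, Nmi deviated from its group mean by 0.18 and Ifi35 by -0.19 on the log2 CPM scale. In untreated replicate 2 the deviations were -0.16 for Nmi and 0.14 for Ifi35.

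The counts of the partners were also compared within each library, where scaling has no part. The log2 ratio of Nmi to Ifi35 counts was 0.43 ± 0.35 in untreated and 0.49 ± 0.04 in treated libraries (SD, n = 3). The difference of 0.07 was smaller than the spread between untreated libraries (exact permutation test, two-sided, p = 0.7, where 0.1 is the smallest p that 3 against 3 allows). Without untreated replicate 2 it was -0.09. Among 9 genes encoding partners of Nmi or Ifi35, 7 were tested, with a median of 0.04. Of those, 1 was higher and 1 lower, against 9.88% and 7.56% over all genes tested. The higher one was Trim21, an antibody receptor and ubiquitin ligase, which rose by 2.62 ± 0.20 from 3.91 ± 0.79 to 24.0 ± 3.18 CPM. Stat6, the partner with the highest level, had 0.04 ± 0.07. Brca1, a DNA repair gene, was lower by -0.45 ± 0.15 (edgeR, adjusted p = 0.0277). That call was lost with DESeq2 (adjusted p = 0.0534) and in 4 of the 6 fits that left out a library: untreated replicate 1 (0.0554), untreated replicate 2 (0.158), IFN-gamma replicate 1 (0.183) and IFN-gamma replicate 3 (0.119). Without IFN-gamma replicate 3 Max, the dimer partner of Myc, was also higher (0.28, edgeR adjusted p = 0.0281).

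Trafd1, also known as FLN29, restrains signalling by Toll-like and RIG-I-like receptors. Its untreated levels were 35.5, 30.6 and 40.8 CPM and its treated levels 167, 165 and 164 CPM in replicates 1, 2 and 3. The treated libraries lay within 0.922% of their mean (SD), the narrowest spread of the 10 genes in either group, against 14.3% in the untreated ones. Trafd1 rose by 2.21 ± 0.09 (edgeR, adjusted p = 2.39e-23). A list of 12 genes from these pathways held Tlr3, Tlr4, Traf1 to Traf7, Mavs, Ticam1 and Myd88, but no RIG-I-like receptor. The 12 genes had a median of 0.29. Of these, 3 were higher and 0 lower, against 9.88% and 7.56% over all genes tested. They were the RNA receptor Tlr3 (2.54 ± 0.16, from 6.97 ± 0.56 to 40.8 ± 5.96 CPM), the adaptor Myd88 (0.67 ± 0.12) and Traf3 (0.39 ± 0.12). The Traf3 call was lost without untreated replicate 1 (edgeR adjusted p = 0.115), IFN-gamma replicate 1 (0.0671) or IFN-gamma replicate 2 (0.123). Traf7, the gene of that list with the highest level, had 0.16 ± 0.10.

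Tor3a belongs to the torsins, ATPases of the endoplasmic reticulum and nuclear envelope. It measured 37.1, 43.9 and 32.5 CPM in untreated replicates 1, 2 and 3 and 146, 145 and 139 CPM in the treated ones, a rise of 1.93 ± 0.09 (edgeR, adjusted p = 7.33e-21). Untreated replicates 2 and 3 were the highest and the lowest of their group, while the treated libraries were close together. None of the other torsin genes Tor1a, Tor1b, Tor2a and Tor4a passed, with changes between -0.25 ± 0.18 (Tor4a) and 0.22 ± 0.14 (Tor2a). Tor1b, at 144 ± 7.62 CPM in untreated and 143 ± 12.8 CPM in treated cells, had -0.01 ± 0.07. Both membrane cofactors that switch on torsin ATPases were higher. Tor1aip1 rose by 0.93 ± 0.08 from 98.1 ± 9.62 to 187 ± 9.42 CPM (edgeR, adjusted p = 2.98e-13). Tor1aip2 rose by 0.51 ± 0.14 (edgeR, adjusted p = 0.00839), a call lost without IFN-gamma replicate 2 (0.34, adjusted p = 0.127).

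Isg20 encodes an exonuclease that degrades single-stranded RNA from its 3' end. Here 1 library stood apart from its group. Levels were 32.8, 29.3 and 33.7 CPM in untreated replicates 1, 2 and 3, and 175, 158 and 104 CPM in IFN-gamma replicates 1, 2 and 3. IFN-gamma replicate 3 was the lowest treated library but remained above all untreated ones. The change was 2.19 ± 0.22 with edgeR (adjusted p = 0.00154), and 2.38 ± 0.09 without IFN-gamma replicate 3 (adjusted p = 3.18e-23). In IFN-gamma replicate 3, 7 of the 10 genes lay below their group mean. Isg20 did so by 0.45 and Ifi27 by 0.21 on the log2 CPM scale. The other 8 genes deviated there by between -0.10 and 0.18. Of the exonuclease relatives Isg20l2, Aen, Rexo1, Rexo2 and Rexo4, the mitochondrial oligoribonuclease gene Rexo2 rose by 0.36 ± 0.07 (edgeR, adjusted p = 0.0002). Aen, which lies next to Isg20 on chromosome 7, had 0.37 ± 0.15 (edgeR, adjusted p = 0.0796), and passed without IFN-gamma replicate 3 (0.45, adjusted p = 0.0456). Over the whole list of 15 structural relatives of the 10 genes, 9 were tested, with a median of 0.09. Of those 9, Rexo2 was higher and 0 were lower, against 9.88% and 7.56% over all genes tested. With 9 genes, these counts do not stand apart from those shares.

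Ifi27 and Ifi27l2a lie side by side on chromosome 12 and encode small hydrophobic proteins of the ISG12 family, found at mitochondria and the nuclear envelope. They differed in response. Ifi27 was already present without treatment, at 106, 122 and 116 CPM in untreated replicates 1, 2 and 3, and measured 180.4, 183 and 147 CPM in the treated ones, a rise of 0.57 ± 0.08 (edgeR, adjusted p = 4.35e-07). Ifi27l2a was scarce, with 16, 14 and 5 counts in untreated and 66, 67 and 62 counts in treated replicates 1, 2 and 3. These are 1.71, 1.90 and 0.523 CPM against 6.15, 7.48 and 7.35 CPM, a rise of 2.36 ± 0.38 (edgeR, adjusted p = 6.62e-06). Without untreated replicate 3, its lowest library, the rise was 1.95 ± 0.38. Another family member of the cluster, Ifi27l2b, had 0 counts in 5 libraries and 3 in IFN-gamma replicate 3. It resembles Ifi27l2a closely, so reads may have been assigned to the wrong copy.

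The log2 ratio of Ifi27 to Ifi27l2a counts was 5.91, 5.95 and 7.66 in untreated and 4.86, 4.61 and 4.31 in IFN-gamma replicates 1, 2 and 3. The groups did not overlap, and the mean ratio was lower after treatment by 1.92 (exact permutation test, two-sided, p = 0.1, the smallest that 3 against 3 allows). The difference fell to -1.34 without untreated replicate 3.

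**Figure D2:**
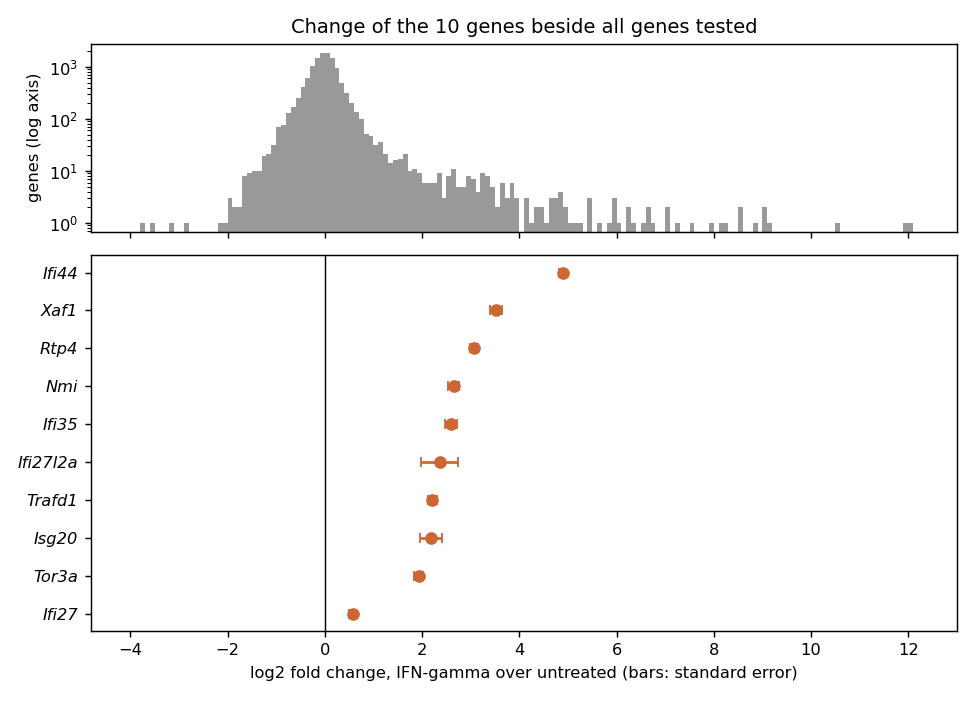
Top, number of genes (log axis) at each log2 fold change over all 12191 genes tested; bottom, log2 fold change of each of the 10 genes with its standard error. All 10 lie above 0, from 0.57 for Ifi27 to 4.89 for Ifi44, while the median of all genes is -0.01.

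Ordered by change, the genes ran Ifi44, Xaf1, Rtp4, Nmi, Ifi35, Ifi27l2a, Trafd1, Isg20, Tor3a and Ifi27. For neighbours in this order, the count ratio of the pair was compared between groups within libraries. It did not overlap between groups for 3 of the 9 pairs, Ifi44 over Xaf1, Rtp4 over Nmi and Tor3a over Ifi27. For the other 6 pairs the ratios overlapped, so the order within each of those pairs was within the spread of the libraries. Genes farther apart in the order were not compared in this way. These pairs were formed from the changes themselves and were not tested.

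Promoter sequence was looked at because the 10 genes rose together and GAS elements and ISREs are the DNA sites of this pathway. RefSeq windows of 300 bases around transcript starts (GRCm38.p6) matched 6 of the 10 genes, in 9 windows: Nmi, Ifi44, Trafd1, Isg20, Xaf1 and Ifi35. Matches on either strand were sought for the GAS letters (TTCNNNGAA), for loose ISRE letters (AANNGAAA) and for a strict ISRE core, which is the loose letters with GA before them. Each strict match contains a loose one. The motifs were settled after the windows had been seen. A stretch with matches is shown for each of 5 genes, 5′ to 3′ on the strand of the gene, with loose ISRE and GAS matches in capitals.
Ifi44, chr3:151749911-151750010, minus strand, bases -100 to -1: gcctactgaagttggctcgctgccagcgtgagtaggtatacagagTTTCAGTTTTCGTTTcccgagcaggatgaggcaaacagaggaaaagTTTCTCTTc
Xaf1, chr11:72301529-72301628, plus strand, bases -100 to -1: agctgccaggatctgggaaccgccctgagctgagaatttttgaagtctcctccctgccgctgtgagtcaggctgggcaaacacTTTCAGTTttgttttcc
Isg20, chr7:78913324-78913423, plus strand, bases -100 to -1: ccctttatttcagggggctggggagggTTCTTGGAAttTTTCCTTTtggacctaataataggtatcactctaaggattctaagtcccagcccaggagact
Nmi, chr2:51973309-51973408, minus strand, bases -200 to -101: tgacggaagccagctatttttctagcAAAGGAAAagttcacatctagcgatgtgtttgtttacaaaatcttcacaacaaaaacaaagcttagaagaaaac
Ifi35, chr11:101448412-101448441, plus strand, bases 1 to 30 of the transcript: agcagaaTTCACAGAAATGAAAgtggaagt

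Loose ISRE letters stood in 5 of the 9 windows, against 23.9% of all 32851 RefSeq windows of that length, and in 5 of the 6 genes, against 26.7% of all genes with a window. GAS letters stood in 2 of the 9 windows (Isg20 and Ifi35), against 8.3% of all windows. Strict ISRE letters stood in none of the 9, against 3.44% of all windows. In Ifi44, the gene with the largest change, 3 loose matches lay upstream of the start, of which those at -55 to -48 and -48 to -41 share 1 base. Xaf1 had 1 match at -17 to -10 and another at 12 to 19 past the start. In Isg20 a GAS match at -73 to -65 was followed after 2 bases by a loose ISRE match at -62 to -55, and in Ifi35 a GAS match at 8 to 16 overlapped a loose ISRE match at 15 to 22. The Isg20 matches belong to its start 1, and the windows of its starts 2 and 3 held none. Neither window of Trafd1 held any of the 3 motifs. Because the motifs were settled after these windows had been seen, the shares are no test of an excess. The matches describe letters in a window and say nothing of binding.

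**Figure D3:**
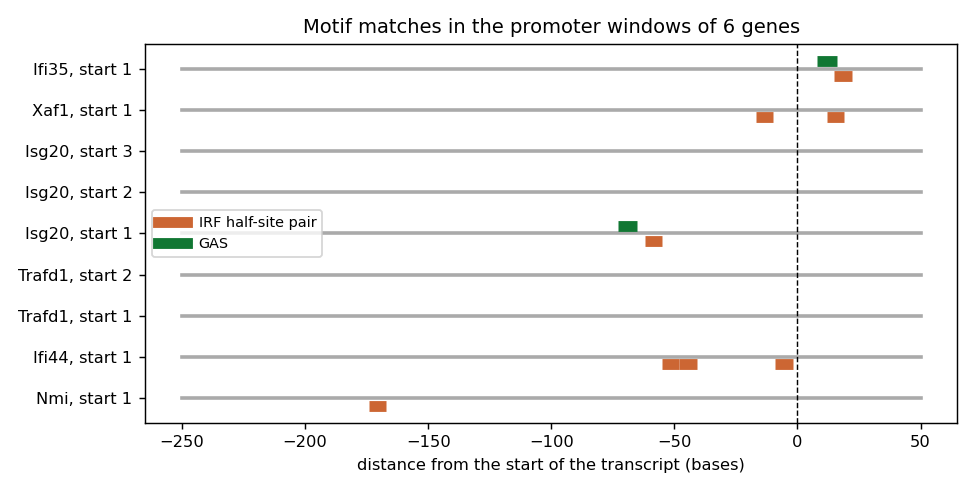
Position of motif matches, in bases from the transcript start (dashed line), along the 9 RefSeq windows of 6 genes, with orange for the loose ISRE letters and green for GAS letters. Ifi44 carries 3 orange matches before the start, and Isg20 (start 1) and Ifi35 each carry 1 green beside 1 orange match. Both Trafd1 windows and those of Isg20 starts 2 and 3 are empty.

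Most genes next to the 10 on their chromosomes had a smaller change or too few counts to be tested. Neighbours were the closest RefSeq genes with a row in the table. Over both sides of each gene there were 18 distinct neighbours outside the list, of which 10 had enough counts to be tested. Of these, 4 were higher and 0 lower (9.88% and 7.56% over all genes tested), with a median of 0.19. The 4 were Rbm43 beside Nmi (0.75 ± 0.15), the RNA helicase gene Ddx24 beside Ifi27 (0.71 ± 0.06), Naa25, an N-terminal acetyltransferase subunit gene, beside Trafd1 (0.70 ± 0.09) and the kinase gene Abl2 beside Tor3a (0.32 ± 0.07). Ddx24 thus changed by about as much as Ifi27, whereas each of the other 9 tested neighbours changed by less than the gene it adjoined. Tnfaip6, on the other side of Nmi, had -0.36 ± 0.20 (edgeR, adjusted p = 0.23). Both neighbours of Xaf1 had 0 counts in all libraries, and those of Rtp4, Masp1 and Sst, had 34 and 1 counts over all 6. In the GENCODE annotation, exons of predicted genes overlap exons of Ifi35, Rtp4 and Trafd1 (Gm11626, Gm45338, and Gm42917 and Gm42918). Whether reads of these were counted on the 3 genes was not tested.

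**Figure D4:**
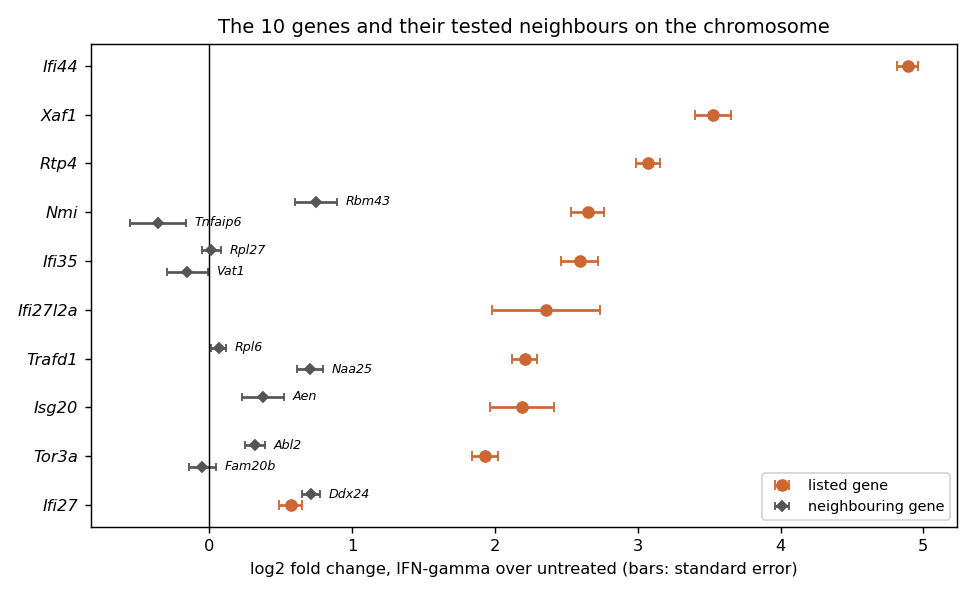
Log2 fold change with standard error of each of the 10 genes (orange circles) and of its tested neighbours on the chromosome (grey diamonds, named). Ddx24, at 0.71, lies next to Ifi27, at 0.57, while the other 9 tested neighbours lie well to the left of the gene they adjoin.

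Genes upstream of these 10 in the pathway were also measured at 72 h. Of 15 receptor, kinase, STAT and IRF genes, 14 were tested, with a median of 0.46. Of those, 9 were higher and 0 lower, against 9.88% and 7.56% over all genes tested. Irf1 had the smallest adjusted p of them and, after treatment, the highest level (3.62 ± 0.07, 900 ± 18.8 CPM). In untreated cells Irf1 had 72.9 ± 9.15 CPM and Jak1 had 404 ± 20.5 CPM. Of 21 genes for interferons themselves, none had enough counts to be tested and 16 had 0 counts in every library, Ifng among them (which allows at most 0.114 CPM untreated and 0.107 CPM treated). Ifnb1, the gene for interferon-beta, had 0 counts in the untreated group, 1 in IFN-gamma replicate 1, 3 in IFN-gamma replicate 2 and 0 in IFN-gamma replicate 3. The highest count of any interferon gene in a library was 7 (Ifnz).

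For each of the 10, the gene outside the list with the most similar profile was sought among 8981 genes of at least 10 CPM on average, by the Euclidean distance between centred log2 CPM over the 6 libraries. This is a description over 6 points that share libraries and carries no p. Parp10, an ADP-ribosyltransferase gene, lay closest to Ifi35 at a distance of 0.10, with a change of 2.58 ± 0.13. The proteasome subunit gene Psma4 lay at 0.13 from Ifi27 (0.64 ± 0.07), the ubiquitin ligase gene Dtx3l at 0.18 from Rtp4 (2.97 ± 0.09), and AA467197 at 0.18 from Nmi (2.66 ± 0.09). Next came 3110062M04Rik at 0.21 from Trafd1, the antiviral gene Ifit3 at 0.23 from Ifi44 (4.75 ± 0.07), the MHC class I activator gene Nlrc5 at 0.25 from Tor3a (2.13 ± 0.11) and Uba7, the activating enzyme of ISG15, at 0.28 from Xaf1 (3.43 ± 0.13). Isg20 and Ifi27l2a had no close match among these candidates, with Psme2b at 0.36 and Phf11c at 0.87. Ifi27l2a itself averaged 1.38 CPM in untreated and 6.99 CPM in treated libraries, so genes at its level were not searched. Isg20 and Ifi27l2a are also the genes with the widest spread in 1 group, 25.6% of the mean for Isg20 in treated and 54.2% for Ifi27l2a in untreated libraries.

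**Figure D5:**
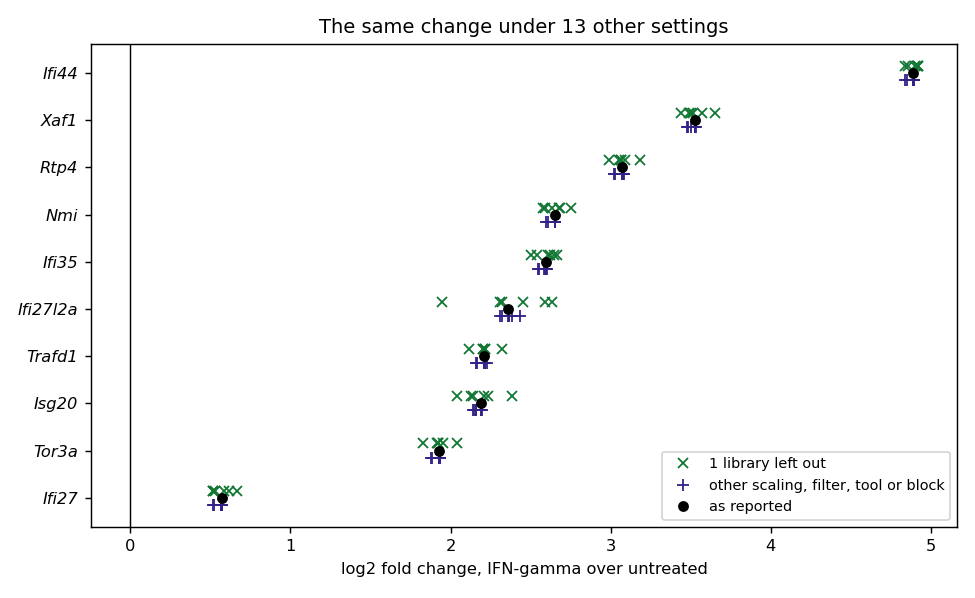
Log2 fold change of each of the 10 genes as reported (black), with 1 library left out (green crosses) and with another scaling, filter, tool or replicate block (violet plus signs). All points lie above 0; Ifi27l2a has the widest range (1.95 to 2.63) and Ifi27 stays lowest (0.52 to 0.67).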

How the data were processed

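The members and the lists of related genes were chosen with earlier results of these data known. Per the submitters' processing notes, Bowtie2 and edgeR were used, without versions, and hg19, a human build, is named for these mouse samples; symbols were therefore read as mouse genes, and coordinates shown are those of RefSeq's GRCm38.p6 tables only. The raw counts per gene deposited by the authors were whole numbers, and the authors also deposited log2 normalized values, used here only as an alternative. Of 23282 rows, 6464 had 0 counts in all libraries.

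The main test was the quasi-likelihood F-test of edgeR 4.0.16 (R 4.3.3) with a robust fit and no covariate, on genes kept by filterByExpr and scaled by TMM, with Benjamini-Hochberg adjustment over 12191 genes and a threshold of 0.05. Standard errors were derived from F and the log2 fold change. The script was tested on simulated data. Count ratios had 0.5 added, and log2 CPM a prior count of 2. All pairs of libraries within a group differed by more than sampling noise. A floor of 3 counts over a group covers counting error only. The rule for named genes took all 10 members, from each list the 2 smallest adjusted p and the highest CPM, the closest profile and neighbours that passed. Other genes, among them Xiap, Max, Traf3, Tnfaip6 and family relatives, were named after their values were seen. Some results that the rule would name are not reported here. Alternatives were other scaling factors, no filter, DESeq2 1.42.0, limma 3.58.1 on the log2 values, a replicate block and leaving out each library.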

Additional observations from a re-analysis of the deposited data

How the results depend on the processing

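All 10 genes were higher and past the threshold in each of the 13 alternatives, in 130 of 130 combinations of gene and alternative, with the largest adjusted p (0.0259) for Isg20 without untreated replicate 3. Ifi44, Xaf1, Rtp4, Tor3a and Ifi27 kept their places in the order of change, while the other 5 exchanged places. Among all genes, 957 were higher and 1343 lower with upper-quartile factors (41.6% of calls higher) and 991 and 1238 with total counts alone (44.5%), against 1204 and 922 (56.6%) with TMM. In fits without 1 library, 987 to 1298 genes were higher and 654 to 1014 lower. The number of higher relatives ranged from 1 to 2 and of torsin cofactors from 1 to 2 in those fits. The number of higher partners of Nmi and Ifi35 ranged from 1 to 2 and of lower ones from 0 to 1, and with DESeq2 it was 0 lower. The cause was not tested. Whether the replicate numbers pair the libraries cannot be decided from 3 libraries per group. Deviations of same-numbered libraries from their group means correlated at 0.0028, 0.041 and -0.0014, and 2 of 6 libraries correlated best with their own number. With the replicate block 1252 genes were higher and 974 lower, against 1204 and 922 without it. At this depth Ifi27l2a, with 35 untreated counts in all, is the least precise of the 10.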
